A study of Mus musculus with 20 samples.

Results

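The plasminogen activation system is a proteolytic cascade at the cell surface in which the serine proteases urokinase (Plau) and tissue-type plasminogen activator (Plat) convert the zymogen plasminogen to plasmin, urokinase being held on the membrane by its receptor Plaur. Many serpins, though not all, are inhibitors that trap serine proteases, and the tissue inhibitors of metalloproteinases (Timps) block the matrix metalloproteinases that plasmin can activate. In skin this network is known for keratinocyte migration during wound closure and for matrix remodeling around carcinomas. The members described here were 9 genes: the activators Plau and Plat, the receptor Plaur, the serpins Serpine2, Serpinb2 and Serpinb5, and the metalloproteinase inhibitors Timp1, Timp2 and Timp3. They were chosen by name, and each was read from the probeset annotated to that gene alone with the highest mean over 20 arrays. Probesets met this rule for 8 of the 9 genes, through 21 probesets, out of 18193 genes with a single-gene probeset, and Serpine2 was not analysed here.

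The 20 arrays (Affymetrix MOE430 2.0, total RNA) came from FVB mice. Of these, 8 tumors arose in Rb ΔEC; Trp53 ΔEC mice, in which k14Cre deleted loxP-flanked pRb and p53 alleles, 7 tumors arose in Trp53 ΔEC mice, in which k14Cre deleted loxP-flanked p53 alleles only, and 5 samples were normal wild type skin from mice 2 months of age. k14Cre is expressed from the keratin 14 promoter, which is active in basal cells of stratified epithelia, so stromal cells of the tumors keep the intact alleles. The Rb ΔEC; Trp53 ΔEC tumors (Rb;Trp53 tumors below) were 1 spindle cell, 2 undifferentiated, 1 mixed and 4 poorly differentiated carcinomas, and the Trp53 ΔEC tumors (Trp53 tumors) were 1 spindle cell, 1 undifferentiated, 3 mixed and 2 poorly differentiated carcinomas. The labels give neither the age of the tumor-bearing mice nor how many mice the tumors were taken from, so each p-value covers only the variation among these 20 samples, part of which may be technical. The values were log2 expression values after robust multi-array averaging (RMA). The array medians lay between 5.59 and 5.75, and a difference of 1 on this scale is a doubling of signal. Levels of different probesets cannot be set against each other, since each has its own response.

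Several features of the whole set touch the results below. The targeted gene Rb1 was read at 6.55 to 8.14 in Rb;Trp53 tumors, 7.85 to 8.84 in Trp53 tumors and 8.95 to 9.26 in skin, and 5 of the 8 Rb;Trp53 tumors lay below all Trp53 tumors. Trp53 was not analysed here. The mean log2 value of 11 keratinocyte markers was 5.25 to 8.61 in undifferentiated/spindle carcinomas, 6.17 to 10.14 in mixed carcinomas, 11.48 to 12.60 in poorly differentiated carcinomas and 11.69 to 11.99 in skin. The mean of 12 macrophage and monocyte markers was 10.42 to 11.44 in undifferentiated/spindle, 7.91 to 8.73 in mixed and 7.68 to 11.14 in poorly differentiated carcinomas, against 9.73 to 10.47 in skin. The mean of 12 fibroblast markers was 10.96 to 11.44, 8.49 to 11.07 and 8.04 to 11.07 in the same tumor classes, against 11.71 to 11.96 in skin. Skeletal muscle markers averaged 5.22 to 8.89 in the tumors and 13.24 to 13.79 in skin, and all 12 of them were lower in tumors, as were all 8 measured adipocyte markers (limma, adjusted p under 0.05). The 3′ minus 5′ signal of Actb, a measure of RNA integrity, was 0.24 to 0.38 in undifferentiated/spindle, 0.38 to 0.66 in mixed and 0.42 to 0.82 in poorly differentiated carcinomas, against 0.50 to 1.19 in skin. The part of these differences in the results was not tested, and in whole tissue fewer cells of a type and less RNA per cell cannot be told apart.

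**Figure D1:**
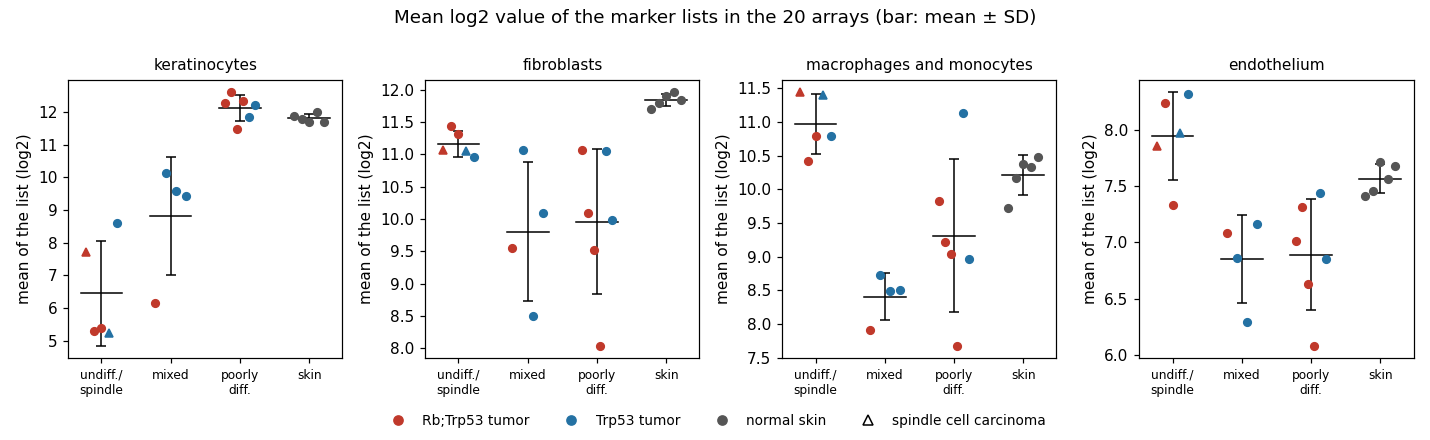
Each panel plots the mean log2 value of a marker list in every array, by histological class, with Rb;Trp53 tumors in red, Trp53 tumors in blue, skin in grey and spindle cell carcinomas as triangles; bars are class means ± SD. The keratinocyte mean of the undifferentiated/spindle carcinomas stays at or below 8.61, against at least 11.48 in the poorly differentiated carcinomas.

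The first question was how the members differed between tumors of different histological grade. Comparing the 5 undifferentiated/spindle with the 6 poorly differentiated carcinomas, 3 members were higher (Plat, Timp1, Timp2), 2 were lower (Serpinb2, Serpinb5) and 3 did not pass the test (Plau, Plaur, Timp3), with limma and Benjamini-Hochberg adjustment over 18193 genes. Over all genes 12.7% were higher and 9.90% lower in this comparison. The differences of the 8 members ran both ways, from -6.25 to 2.09 on the log2 scale. Their median was 0.84, between the differences of Plau and Timp3, which did not pass, while the median over all genes lay near 0. The 2 epithelial serpins had the largest differences among the members, and both moved with the keratinocyte markers, of which 11 of 11 were lower.

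**Figure D2:**
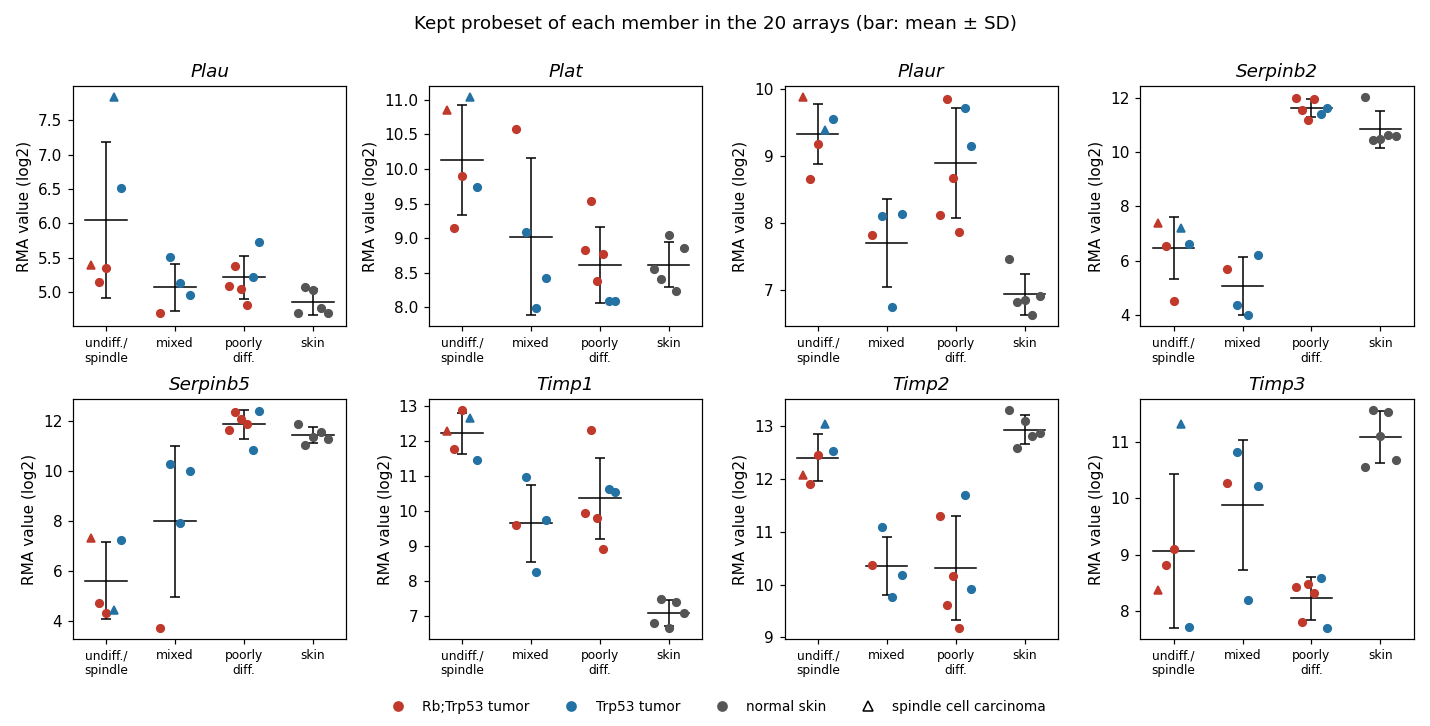
Each panel plots the RMA value (log2) of a member's kept probeset in the 20 arrays by histological class, with Rb;Trp53 tumors in red, Trp53 tumors in blue, skin in grey and spindle cell carcinomas as triangles; bars are class means ± SD. Serpinb2 and Serpinb5 of the undifferentiated/spindle carcinomas lie below all poorly differentiated carcinomas, and Timp1 of all 15 tumors lies above all skin samples.

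Serpinb5 (maspin), a clade B serpin of normal epithelia described as a tumor suppressor in human breast, lies at chr1:106861175-106883348 (GRCm38.p6). Its level was 7.33, 4.72 and 4.33 in the Rb;Trp53 undifferentiated/spindle tumors 1, 3 and 5, and 4.44 and 7.25 in the Trp53 undifferentiated/spindle tumors 1 and 2. It was 10.85 at the lowest, 11.96 at the median and 12.39 at the highest in the poorly differentiated carcinomas. The groups did not overlap, and Serpinb5 was lower in the undifferentiated/spindle carcinomas (difference -6.25 ± 0.60, SE, limma adjusted p = 2.64e-05). Of these 5 tumors 3 were below the median of their own array, where the signal may be background, so no fold is given. The mixed carcinomas were spread over most of the range, at 3.73 in Rb;Trp53 tumor 4 and at 10.28, 7.93 and 9.98 in Trp53 tumors 3, 5 and 7. All 4 were nevertheless below every poorly differentiated carcinoma (difference -3.88 ± 0.94, SE, limma adjusted p = 0.00524) and below every skin sample, which read 11.87, 11.04, 11.37, 11.55 and 11.29 (difference from skin -3.45 ± 0.98, SE, limma adjusted p = 0.00807). Without Rb;Trp53 tumor 4 these differences were -2.46 and -2.03, both still called by limma. Neither passed an unequal-variance test run as an alternative, at adjusted p = 0.272 and 0.207. Poorly differentiated carcinomas and skin overlapped (difference 0.43 ± 0.88, SE, limma adjusted p = 0.738). At the kept probeset the order of class means was therefore undifferentiated/spindle, mixed, skin and poorly differentiated. In it undifferentiated/spindle was not separated from mixed (difference -2.37, limma adjusted p = 0.0991), nor skin from poorly differentiated. Without Rb;Trp53 tumor 4, the mixed tumor with the lowest Serpinb5 and the lowest keratinocyte mean of its class, undifferentiated/spindle carcinomas were lower than mixed ones (difference -3.79, limma adjusted p = 0.000917). The other 3 Serpinb5 probesets were all lower in undifferentiated/spindle than in poorly differentiated carcinomas, by differences of -6.27 to -5.68, and all 3 were also lower in undifferentiated/spindle than in mixed carcinomas. Unlike the kept probeset, all 3 read poorly differentiated carcinomas below skin on average (differences from -0.81 to -0.41, none called by limma). At the brightest of the 3 these groups did not overlap, at 9.88 to 10.90 in poorly differentiated carcinomas and 11.17 to 11.52 in skin.

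Serpinb2 (plasminogen activator inhibitor type 2), an inhibitor of urokinase made by keratinocytes and activated macrophages, lies 617544 bases beyond Serpinb5 at chr1:107500892-107525600. Its level was 7.38, 6.54 and 4.53 in Rb;Trp53 undifferentiated/spindle tumors 1, 3 and 5, and 7.20 and 6.62 in Trp53 tumors 1 and 2. The poorly differentiated carcinomas read 11.16 at the lowest, 11.59 at the median and 12.001 at the highest. Again the groups did not overlap, with a difference of -5.17 ± 0.43 (SE, limma adjusted p = 9.62e-06). Serpinb2 was below the median of the array in 4 tumors, Rb;Trp53 tumors 4 and 5 and Trp53 tumors 3 and 5, and again no fold is given. In contrast to Serpinb5, Serpinb2 was low in all 4 mixed carcinomas, at 5.69 in Rb;Trp53 tumor 4 and 4.36, 3.99 and 6.21 in Trp53 tumors 3, 5 and 7. The difference of mixed from poorly differentiated carcinomas was -6.55 ± 0.50 (SE, limma adjusted p = 3.93e-08), and that from skin was -5.77 ± 0.52 (SE, limma adjusted p = 8.93e-08). Skin itself read 12.01 in sample 1 and 10.44, 10.49, 10.63 and 10.57 in samples 2 to 5, and overlapped the poorly differentiated carcinomas (difference 0.79 ± 0.47, SE, limma adjusted p = 0.199). The order was thus mixed, undifferentiated/spindle, skin and poorly differentiated, and the lowest pair did not differ by the test (undifferentiated/spindle minus mixed 1.39 ± 0.52, SE, limma adjusted p = 0.0678). That pair passed without Rb;Trp53 tumor 5 (1.87, adjusted p = 0.00620) or without Trp53 tumor 7 (1.77, adjusted p = 0.0301, both limma). A single probeset measured Serpinb2.

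**Figure D3:**
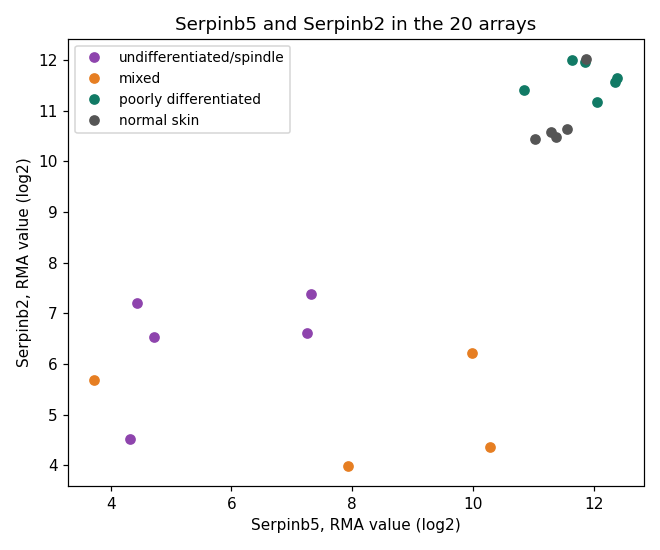
The plot sets the RMA value (log2) of Serpinb5 on the horizontal axis against that of Serpinb2 on the vertical axis in the 20 arrays, coloured by histological class. Poorly differentiated carcinomas and skin share the upper right corner, while 3 mixed carcinomas keep Serpinb5 at 7.93 to 10.28 with Serpinb2 at 3.99 to 6.21.

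The 3 Trp53 mixed carcinomas had keratinocyte marker means of 9.42 to 10.14, above the 5.25 to 8.61 of the undifferentiated/spindle carcinomas, and a Serpinb5 above all of theirs, while their Serpinb2 overlapped the 4.53 to 7.38 of those tumors. This contrast within 3 tumors is a description and was not tested. The genes whose centred profile over the 20 arrays lay closest to each serpin differed too. For Serpinb5 these were Krt5, the basal epidermal keratin, at a root mean square difference of 0.63 log2 units, and Perp, a desmosome-associated p53 target, at 0.68. For Serpinb2 they were Cnfn (cornifelin), a cornified envelope protein, at 0.88, and Bpifc at 0.89. These neighbors are a description over 20 arrays that share their classes, and no test was made.

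Among 9 measured genes of 14 listed other clade B serpins, 6 were lower and 1 was higher in undifferentiated/spindle than in poorly differentiated carcinomas, with a median difference of -2.22, against 9.90% of all genes lower and 12.7% higher. The 3 with the smallest p were Serpinb11 (difference -4.14 ± 0.20, SE, limma adjusted p = 2.48e-07), Serpinb3a, a mouse relative of the human squamous cell carcinoma antigens (-4.73 ± 0.46, adjusted p = 2.95e-05), and Serpinb8 (-2.22 ± 0.27, adjusted p = 0.000160). The higher one was Serpinb6a (0.78, limma adjusted p = 0.0385), an inhibitor expressed in many tissues, which was lower in all tumors than in skin (-1.29 ± 0.39, SE, limma adjusted p = 0.0128). In mixed against poorly differentiated carcinomas 8 of the 9 were lower and none was higher, against 11.9% of all genes lower and 13.5% higher in that comparison. In all tumors against skin 3 of the 9 were lower and 0 higher (18.0% and 17.7% of all genes). Besides Serpinb6a these were Serpinb7, whose human counterpart is mutated in a palmoplantar keratoderma (-6.23 ± 0.55, SE, limma adjusted p = 2.46e-08), and Serpinb11 (-3.44 ± 0.92, adjusted p = 0.00608), and both lay wholly below skin in all 15 tumors. The undifferentiated/spindle means of Serpinb11 (4.81) and Serpinb3a (3.31) and the tumor mean of Serpinb7 (4.08) were below the array medians. Signal there may be background. Clade B is a family that also includes keratinocyte genes, and its members share much sequence, so signals of the close copies may be partly shared.

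The promoters of the members whose signals moved furthest, and of the receptor Plaur, are shown because Serpinb5 and Serpinb2 were low together by grade while Timp1 and Plaur were high in tumors. RefSeq windows for GRCm38.p6 were matched for 7 of the 9 members, and the 250 bases before the transcript start were searched on both strands for TGANTCA (the AP-1 element), CACCTG (an E-box bound by Snai and Zeb factors) and TATAAA. Capitals mark every match, and the windows are chr1:106860925-106861174 (plus strand) for Serpinb5, chr1:107511173-107511422 (plus strand, the first of 2 listed starts) for Serpinb2, chr7:24462233-24462482 (plus strand) for Plaur and chrX:20869916-20870165 (plus strand) for Timp1. The Serpinb2 and Plaur windows lie inside the gene spans quoted for these genes, before transcript starts within those spans. The bases before the outer ends of those spans were not searched.
Serpinb5: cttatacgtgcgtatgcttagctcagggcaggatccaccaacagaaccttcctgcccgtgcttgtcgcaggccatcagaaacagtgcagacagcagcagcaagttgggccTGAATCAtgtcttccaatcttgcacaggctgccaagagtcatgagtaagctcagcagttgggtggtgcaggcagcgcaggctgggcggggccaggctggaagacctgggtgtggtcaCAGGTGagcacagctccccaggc
Serpinb2: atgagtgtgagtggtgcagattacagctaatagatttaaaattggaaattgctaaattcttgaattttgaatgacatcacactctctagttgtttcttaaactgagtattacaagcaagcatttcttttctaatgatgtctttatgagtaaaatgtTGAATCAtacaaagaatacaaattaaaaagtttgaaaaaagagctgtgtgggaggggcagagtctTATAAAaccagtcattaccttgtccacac
Plaur: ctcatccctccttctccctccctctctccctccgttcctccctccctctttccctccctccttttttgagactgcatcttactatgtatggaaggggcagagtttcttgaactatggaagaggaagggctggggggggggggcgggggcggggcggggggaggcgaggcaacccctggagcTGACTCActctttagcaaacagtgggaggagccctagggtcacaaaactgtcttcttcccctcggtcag
Timp1: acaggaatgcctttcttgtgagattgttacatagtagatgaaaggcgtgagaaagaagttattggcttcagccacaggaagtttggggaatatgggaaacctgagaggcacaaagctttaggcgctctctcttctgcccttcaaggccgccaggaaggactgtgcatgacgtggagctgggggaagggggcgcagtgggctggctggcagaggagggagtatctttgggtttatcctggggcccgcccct
TGANTCA occurred in the windows of Serpinb5, Serpinb2 and Plaur, and in 6.75% of 32851 promoter windows of the same length. In both serpins the matched letters were TGAATCA, 140 to 134 bases before the start in Serpinb5 and 94 to 88 bases before it in Serpinb2. With A in the middle these are not the strict AP-1 element, while the Plaur match was TGACTCA, 69 to 63 bases before the start. CACCTG or its reverse complement occurred in Serpinb5, Timp2 and Timp3 and in 17.2% of all windows, and TATAAA occurred in Serpinb2 and in 12.4% of all windows. The windows of Timp1 and Serpine2 held none of the 3 patterns. A match is a description of letters in this window only.

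Timp1, a secreted inhibitor of metalloproteinases that also has growth-promoting activity, lies at chrX:20870166-20874737 and was the furthest above skin among the 8 measured members. It read 12.30, 11.79 and 12.89 in Rb;Trp53 undifferentiated/spindle tumors 1, 3 and 5 and 12.67 and 11.48 in Trp53 tumors 1 and 2. The mixed carcinomas read 9.62 in Rb;Trp53 tumor 4 and 10.98, 8.28 and 9.76 in Trp53 tumors 3, 5 and 7, and the poorly differentiated carcinomas read 8.93 at the lowest, 10.26 at the median and 12.34 at the highest. Skin read 6.80, 7.51, 6.67, 7.42 and 7.08. All 15 tumors lay above all 5 skin samples, with a difference of 3.71 ± 0.62 (SE, limma adjusted p = 9.63e-05), or 13.1-fold. The distance from skin was 5.13 ± 0.52 in undifferentiated/spindle (adjusted p = 3.00e-07), 2.56 ± 0.55 in mixed (adjusted p = 0.000996) and 3.28 ± 0.50 in poorly differentiated carcinomas (adjusted p = 4.33e-05; SE, limma). Undifferentiated/spindle carcinomas were higher than mixed ones without overlap (2.57 ± 0.55, SE, limma adjusted p = 0.00297). They were also higher than poorly differentiated ones (1.86 ± 0.51, SE, limma adjusted p = 0.0222), though Rb;Trp53 tumor 6, a poorly differentiated carcinoma at 12.34, exceeded 3 of the 5. This last difference lost its call without Trp53 tumor 1 (1.75, adjusted p = 0.0538) or Rb;Trp53 tumor 5 (1.69, adjusted p = 0.0581, both limma). Mixed and poorly differentiated carcinomas did not differ by the test (-0.71 ± 0.53, SE, limma adjusted p = 0.367). The closest profiles were Col8a1, a short-chain collagen, and Upp1, uridine phosphorylase, each at a root mean square difference of 0.84.

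Timp2, which inhibits metalloproteinases and with Mmp14 takes part in activating Mmp2, lies at chr11:118301061-118355411 and had a different course. It read 12.08, 11.90 and 12.45 in Rb;Trp53 undifferentiated/spindle tumors 1, 3 and 5 and 13.04 and 12.53 in Trp53 tumors 1 and 2. It was lower in the other tumors, at 10.37 in mixed Rb;Trp53 tumor 4, at 11.09, 9.77 and 10.17 in mixed Trp53 tumors 3, 5 and 7, and at 9.18, 10.04 and 11.69 as the lowest, median and highest of the poorly differentiated carcinomas. Skin read 13.30, 12.57, 13.09, 12.80 and 12.87, and spindle Trp53 tumor 1 lay within this range. Undifferentiated/spindle carcinomas exceeded all poorly differentiated (2.09 ± 0.43, SE, limma adjusted p = 0.00470) and all mixed carcinomas (2.04 ± 0.41, SE, limma adjusted p = 0.00196). Mixed (-2.57 ± 0.41, adjusted p = 6.61e-05) and poorly differentiated carcinomas (-2.62 ± 0.37, adjusted p = 2.26e-05, both SE and limma) lay wholly below skin, while undifferentiated/spindle carcinomas overlapped skin (-0.53 ± 0.39, SE, limma adjusted p = 0.300). The fibroblast markers showed a similar order of class means, with 8 of 12 lower than skin in mixed and in poorly differentiated carcinomas and 2 of 12 lower in undifferentiated/spindle ones. By grade, however, only 2 of the 12 were higher and 0 lower. Of 12 macrophage and monocyte markers, 7 were higher and 0 lower by grade. Against skin 9 of these were lower in mixed and 7 in poorly differentiated carcinomas, with 1 higher in each. The part of either list in the Timp2 result was not tested. Of the 5 other Timp2 probesets 4 were higher by grade and all 5 were lower in poorly differentiated carcinomas than in skin, while their differences of undifferentiated/spindle carcinomas from skin ran from -0.71 to 0.44, 1 of them called lower. The probeset called lower there was also the one not called by grade. It was dim, with a mean of 3.90 and a highest value of 5.30 over the 20 arrays, where signal may be background. The closest profiles were Hexa, a lysosomal hexosaminidase subunit, at 0.43 and Cpq, carboxypeptidase Q, at 0.49.

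Timp3, an inhibitor that is bound to the extracellular matrix, lies at chr10:86300412-86349505 and was lowest in the poorly differentiated carcinomas. Its level was 8.38, 8.82 and 9.10 in Rb;Trp53 undifferentiated/spindle tumors 1, 3 and 5 and 11.32 and 7.72 in Trp53 tumors 1 and 2. In the mixed carcinomas it was 10.27 in Rb;Trp53 tumor 4 and 10.81, 8.19 and 10.22 in Trp53 tumors 3, 5 and 7, and in the poorly differentiated carcinomas it was 7.70 at the lowest, 8.38 at the median and 8.60 at the highest. Skin read 10.55, 11.56, 11.09, 11.52 and 10.67. The poorly differentiated carcinomas lay wholly below skin (-2.85 ± 0.51, SE, limma adjusted p = 0.000231), as did 4 of the 5 undifferentiated/spindle carcinomas (-2.01 ± 0.53, SE, limma adjusted p = 0.00505), the exception being the spindle cell Trp53 tumor 1. Mixed carcinomas were not called different from skin (-1.21 ± 0.57, SE, limma adjusted p = 0.0949). They were higher than poorly differentiated ones (1.65 ± 0.55, SE, limma adjusted p = 0.0331), a call lost without any of Trp53 tumors 3, 6 and 7 or Rb;Trp53 tumors 4 and 6, with limma adjusted p of 0.109 without Trp53 tumor 3. Undifferentiated/spindle carcinomas were called lower than mixed ones only without Trp53 tumor 1 (-1.37, against -0.81 with it, limma adjusted p = 0.0411 without it). Of the 3 other Timp3 probesets, 2 were lower in all tumors than in skin and 1 did not pass. By class, 2 of the 3 were called lower than skin in poorly differentiated carcinomas. Only 1 of the 3 was called lower than skin in undifferentiated/spindle carcinomas (differences from -1.93 to -0.20). In mixed against poorly differentiated carcinomas 1 of the 3 was called higher (differences from 1.12 to 1.72). Il17rd and Adamtsl1 had the closest profiles, at 0.70 and 0.73.

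Plaur, the urokinase receptor, a glycolipid-anchored protein of migrating keratinocytes and of myeloid cells, lies at chr7:24460937-24475970. It read 9.87, 8.65 and 9.18 in Rb;Trp53 undifferentiated/spindle tumors 1, 3 and 5 and 9.38 and 9.54 in Trp53 tumors 1 and 2. It was 7.81 in mixed Rb;Trp53 tumor 4, 8.10, 6.74 and 8.12 in mixed Trp53 tumors 3, 5 and 7, and 7.86, 8.90 and 9.85 as the lowest, median and highest of the poorly differentiated carcinomas. Skin read 7.45, 6.82, 6.84, 6.63 and 6.91, and mixed Trp53 tumor 5 was the only tumor not above all skin samples. Tumors together exceeded skin by 1.79 ± 0.40 (SE, limma adjusted p = 0.00169), or 3.45-fold. Both undifferentiated/spindle (2.40 ± 0.36, adjusted p = 3.16e-05) and poorly differentiated carcinomas (1.96 ± 0.35, adjusted p = 0.000200, both SE and limma) were wholly above skin, and they were not distinguished from each other (0.44 ± 0.37, SE, limma adjusted p = 0.467). Mixed carcinomas lay between, below undifferentiated/spindle ones without overlap (undifferentiated/spindle minus mixed 1.63 ± 0.38, SE, limma adjusted p = 0.00559) and below poorly differentiated ones (-1.19 ± 0.37, SE, limma adjusted p = 0.0233). The difference from poorly differentiated ones was no longer called without Trp53 tumor 5 (-0.88, adjusted p = 0.0910) or Rb;Trp53 tumor 6 (-1.002, adjusted p = 0.0506), and without Trp53 tumor 5 mixed carcinomas were instead called higher than skin (1.08, adjusted p = 0.0287, all limma). Of 12 macrophage and monocyte markers, 10 were higher in undifferentiated/spindle than in mixed carcinomas, and 1 was higher and 7 were lower in poorly differentiated carcinomas than in skin. In undifferentiated/spindle carcinomas 4 were higher and 1 lower than in skin. By grade 7 were higher and 0 lower, and in mixed carcinomas against skin 1 was higher and 9 lower, while Plaur was called in neither comparison. Of 6 measured neutrophil markers, 4 were higher and 0 lower in poorly differentiated carcinomas than in skin (median difference 1.87), and 2 were lower in mixed than in poorly differentiated carcinomas, with none higher. By grade 3 neutrophil markers were lower in undifferentiated/spindle carcinomas. The part of myeloid cells in the Plaur result was not tested. The closest profiles were Clec5a, a myeloid C-type lectin, at 0.49 and the Ets factor Elk3 at 0.54.

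Plat, the tissue-type activator, at chr8:22757722-22782848, was highest in the spindle cell carcinomas. It read 10.85 in spindle Rb;Trp53 tumor 1 and 11.04 in spindle Trp53 tumor 1, and 9.14, 9.89 and 9.73 in the undifferentiated Rb;Trp53 tumors 3 and 5 and Trp53 tumor 2. Mixed carcinomas read 10.58 in Rb;Trp53 tumor 4 and 9.09, 7.99 and 8.42 in Trp53 tumors 3, 5 and 7. Poorly differentiated carcinomas read 8.09, 8.57 and 9.53 as lowest, median and highest, and skin read 8.55, 8.40, 9.04, 8.23 and 8.85. All 5 undifferentiated/spindle carcinomas exceeded skin (1.51 ± 0.43, SE, limma adjusted p = 0.00802), and 4 of the 5 exceeded all poorly differentiated carcinomas (1.52 ± 0.37, SE, limma adjusted p = 0.0119). The grade difference fell just outside the threshold in the unequal-variance test (adjusted p = 0.0510). Of 10 endothelial markers, 6 were higher and 0 lower by grade (median difference 1.16), and 4 were higher and 1 lower in undifferentiated/spindle carcinomas than in skin. Against skin, 0 were higher and 5 lower in poorly differentiated carcinomas, and 1 was higher and 7 lower in mixed carcinomas, while Plat was called in neither comparison. The part of these markers in the Plat result was not tested. Poorly differentiated carcinomas and skin had means of 8.62 and 8.62, and mixed carcinomas were not called different from either, with Rb;Trp53 tumor 4 alone at the level of the spindle cell carcinomas. Without that tumor undifferentiated/spindle carcinomas were higher than mixed ones (1.63, limma adjusted p = 0.00878), against 1.11 (adjusted p = 0.0976) with it, and the same held without Rb;Trp53 tumor 3 (1.36, adjusted p = 0.0483). The second Plat probeset was dim, spanned 0.76 over the 20 arrays and passed in no comparison. Sgtb and Cacnb2 had the closest profiles to the kept Plat probeset, at 0.48 and 0.51.

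Plau (urokinase), at chr14:20836662-20843388, had low signal, below the median of its own array in 17 of 20 samples. It read 5.40, 5.14 and 5.36 in Rb;Trp53 undifferentiated/spindle tumors 1, 3 and 5, but 7.83 and 6.52 in Trp53 tumors 1 and 2. The mixed carcinomas read 4.69, 5.51, 5.14 and 4.95, the poorly differentiated carcinomas read 4.82, 5.15 and 5.73 as lowest, median and highest, and skin read 4.69, 5.08, 5.03, 4.77 and 4.70. The 5 undifferentiated/spindle carcinomas were all above skin (1.20 ± 0.37, SE, limma adjusted p = 0.0138). This difference was 0.75 without Trp53 tumor 1 and was not called by the unequal-variance test (adjusted p = 0.135). The undifferentiated/spindle carcinomas were not called different from poorly differentiated ones (0.84 ± 0.43, SE, limma adjusted p = 0.203, and 0.39 without Trp53 tumor 1). The second Plau probeset was likewise higher than skin in undifferentiated/spindle carcinomas (2.01, limma adjusted p = 0.00753) and was also higher than in mixed ones (1.88, adjusted p = 0.0386). At the kept probeset that difference was 0.98 (limma adjusted p = 0.0902), and 1.20 without Rb;Trp53 tumor 3 (adjusted p = 0.0402). The grade difference was 0.22 within Rb;Trp53 tumors and 1.70 within Trp53 tumors, and the interaction did not pass over all genes (-1.48 ± 0.48, SE, limma adjusted p = 0.614). The other 7 members had interaction adjusted p of 0.755 or more. Crhbp and Ptprn lay closest in profile to Plau, at 0.31 and 0.35, with the low Plau signal as a limit.

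**Figure D4:**
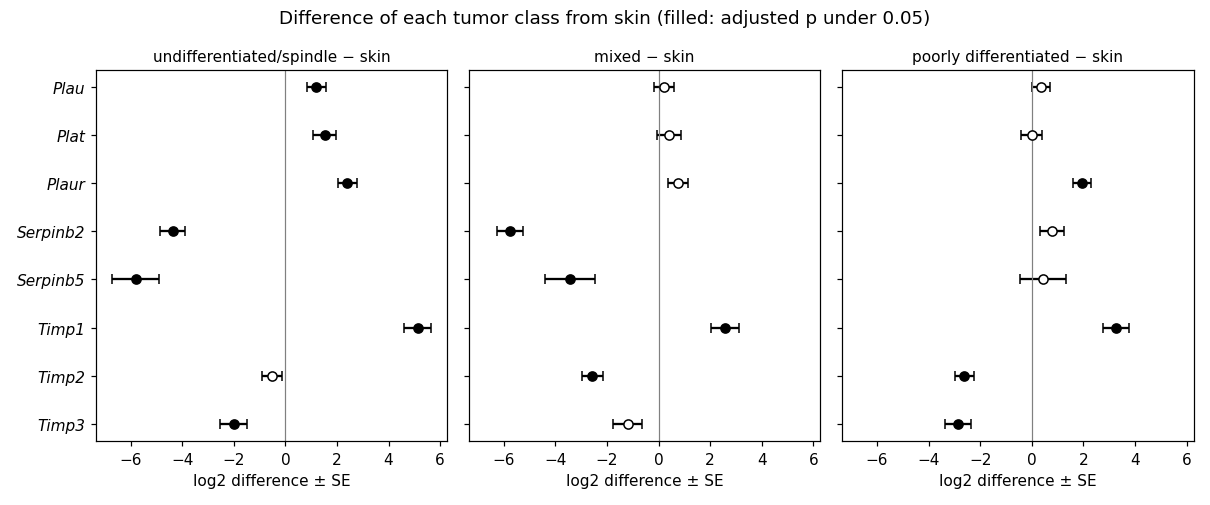
Each panel plots the log2 difference of a tumor class from skin for the 8 measured members, with bars of ± SE and filled points where the limma adjusted p was under 0.05. Undifferentiated/spindle carcinomas have 7 filled points, mixed and poorly differentiated carcinomas 4 each, and Timp1 is the point furthest to the right in all 3 panels.

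Taking all tumors against skin, 2 members were higher (Plaur and Timp1) and 2 lower (Timp2 and Timp3), while 17.7% of all genes were higher and 18.0% lower. Against skin, undifferentiated/spindle carcinomas had 4 members higher and 3 lower (22.0% and 20.2% of all genes), mixed carcinomas 1 higher and 3 lower (21.9% and 21.5%), and poorly differentiated carcinomas 2 higher and 2 lower (19.2% and 19.6%). These 3 comparisons share the same skin samples. Mixed against poorly differentiated carcinomas had 1 member higher and 3 lower (13.5% and 11.9% of all genes), and undifferentiated/spindle against mixed carcinomas 3 higher and none lower (10.2% and 9.15%). Both epithelial serpins had mean differences near -2.68 between all tumors and skin without passing (limma adjusted p = 0.132 for Serpinb2 and 0.150 for Serpinb5), with the poorly differentiated carcinomas overlapping skin and the other tumors below it. Of the 4 members that passed, none lost its call when any array was left out. Among their other probesets, 3 of 5 for Timp2, including the dim one, and 2 of 3 for Timp3 were called lower in this comparison, and the rest did not pass. Of the 3 other Serpinb5 probesets, with differences from -3.72 to -3.23, 1 was called lower (limma adjusted p = 0.0417). The unequal-variance test additionally called Plau higher (adjusted p = 0.0331) and Serpinb2 (0.0163) and Serpinb5 (0.0182) lower in all tumors. In the smaller groups it did not call several of the limma differences above: Timp1 by grade (adjusted p = 0.0521), in mixed carcinomas against skin (0.0550) and in undifferentiated/spindle against mixed carcinomas (0.125), Plaur in mixed against poorly differentiated (0.181) and in undifferentiated/spindle against mixed carcinomas (0.103), and Timp3 in undifferentiated/spindle carcinomas against skin (0.0581) and in mixed against poorly differentiated carcinomas (0.236).

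Between genotypes no member passed. Comparing 8 Rb;Trp53 with 7 Trp53 tumors, 0 of 8 members were called by limma, 0 had an unadjusted p under 0.05 and 0 were called by the unequal-variance test, and over all genes 0.0110% were higher and 0.0220% lower. Serpinb2 averaged 8.85 ± 3.13 in Rb;Trp53 tumors and 7.35 ± 3.08 in Trp53 tumors (SD), a difference of 1.50 ± 1.51 (SE, limma adjusted p = 0.976). Of these tumors, 4 of the 8 Rb;Trp53 and 2 of the 7 Trp53 ones were poorly differentiated, and the difference was -0.027 with histological class as a covariate. Plau had a difference of -0.73 ± 0.35 (SE, limma adjusted p = 0.954), with 5.11 ± 0.26 in Rb;Trp53 tumors and 5.84 ± 1.02 in Trp53 tumors (SD). The remaining 6 differences lay between -0.52 and 0.57. The SEs of the 8 differences ran from 0.35 for Plau to 1.64 for Serpinb5.

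Beyond the members, the plasminogen system list had 24 other genes, of which 22 were measured. Of these, 7 were higher and 0 lower in undifferentiated/spindle than in poorly differentiated carcinomas, against 12.7% and 9.90% of all genes, with a median difference of 0.26. Mrc2, an endocytic collagen receptor that associates with Plaur, was higher by 2.07 ± 0.33 (SE, limma adjusted p = 0.000929). Hgf, a growth factor whose precursor can be cleaved by plasminogen activators, was higher by 2.47 ± 0.43 (SE, limma adjusted p = 0.00178), and Igf2r, a receptor that also binds Plaur, by 1.17 ± 0.23 (SE, limma adjusted p = 0.00326). The plasminogen gene itself, Plg, made mainly by the liver, was at a mean of 4.03 in undifferentiated/spindle and 4.07 in poorly differentiated carcinomas. Against skin, 4 of the 22 were higher and 6 lower in all tumors, where 17.7% of all genes were higher and 18.0% lower. Lrp8, an apolipoprotein E receptor, was higher by 2.67 ± 0.31 (limma adjusted p = 1.29e-06), vitronectin (Vtn), an adhesion protein bound by Plaur, was lower by 1.55 (difference -1.55 ± 0.30, adjusted p = 0.000351), and Serping1, the C1 inhibitor, had a difference of -2.84 ± 0.57 (adjusted p = 0.000528, all SE and limma). The means of Lrp8 in skin (4.80), Vtn in tumors (5.44) and Hgf in poorly differentiated carcinomas (5.19) were below the array medians, where signal may be background.

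Among 16 measured genes of 17 listed in the metalloproteinase and Timp system, 5 were higher and 3 lower in all tumors than in skin (17.7% and 18.0% of all genes), and 0 were higher and 2 lower by grade (12.7% and 9.90% of all genes). Mmp13, a collagenase, was higher in tumors than in skin by 6.33 ± 0.90 (limma adjusted p = 1.45e-05) and Mmp10 by 3.25 ± 0.59 (adjusted p = 0.000207), while Timp4 was lower (-1.19 ± 0.15, adjusted p = 2.63e-06, all SE). By grade, Mmp13 (-3.33 ± 0.60, limma adjusted p = 0.00209) and the gelatinase Mmp9 (-2.33 ± 0.38, adjusted p = 0.00101, both SE) were lower in undifferentiated/spindle carcinomas, where Timp1 and Timp2 were higher. Mmp14, the membrane-type metalloproteinase, did not pass (1.01 ± 0.38, SE, limma adjusted p = 0.0828).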

How the data were processed

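RNA of 15 carcinomas and 5 skin samples was hybridised to Affymetrix MOE430 2.0 arrays. The authors deposited log2 values made by RMA (named in the submitters' processing notes; no version is named), which corrects background, normalizes quantiles between arrays and summarizes the probes of each probeset; no detection calls were used. Of 45101 probesets, 64 controls were left out. GEO's platform annotation gave 34945 of the 45037 others a single gene symbol, 932 several and 9160 none; symbols were updated to RefSeq through the gene ID except for 204. The number of arrays limits precision.

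Each gene was represented by its single-gene probeset with the highest mean over the 20 arrays (18193 genes). The members and gene lists were chosen with earlier results of these data known. limma 3.58.1 in R 4.3.3 (lmFit and eBayes, two-sided) was fitted over all genes with Benjamini-Hochberg adjustment, and adjusted p under 0.05 was called. Tumors against skin, undifferentiated/spindle against poorly differentiated and Rb;Trp53 against Trp53 tumors had fits of their own on those samples, the other comparisons came from 1 fit of the 4 classes, and the grade by genotype interaction from the 11 undifferentiated/spindle and poorly differentiated tumors. The highest correlation between any pair of arrays was 0.993. The scripts were tested on simulated data. Beside all 9 members, the text names by rule the 2 genes closest in centred profile to each member spanning at least 2 log2 units, and from each pathway list the 3 genes with the smallest p by grade and against skin. Alternatives were the median of a gene's probesets, all probesets in 1 fit, arrays centred on their medians, genes with a mean under 6 left out, an unequal-variance 2-group test (the study's methods name a 2-group test without stating its form), an intensity trend, genotype or class as a covariate, other handling of mixed tumors, the replicate number as a block, and leaving out each array. Figures were drawn in Python 3.11.15.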

Additional observations from a re-analysis of the deposited data

Results flagged for a closer look

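In 48 groups of 4 to 8 samples (8 members in 4 histological classes and 2 genotypes), 1 held a sample far from the others by Dixon's test, where chance alone flags about 1 group in 20. Serpinb2 read 12.01 in skin sample 1, while the other 4 skin samples lay between 10.44 and 10.63. That sample also had the lowest macrophage marker mean of the skin samples, 9.73, and a keratinocyte marker mean of 11.89 within the range of the others. It was the highest skin sample for Serpinb5 (11.87), Plaur (7.45), Timp2 (13.30) and the mean of the other clade B serpins (8.42). For Plau (4.69) and Timp3 (10.55) it was the lowest. None of these member readings was flagged. Without skin sample 1 no call on Serpinb2 changed. No difference between the grade effects of Rb;Trp53 and Trp53 tumors passed the interaction test for any of the 8 members.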

How the results depend on the processing

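No called difference of a member changed direction under any alternative run. Fitting all probesets together, centring the arrays, leaving out dim genes (which drops Plau), an intensity trend for tumors against skin and genotype as a covariate for grade changed no call of a member. With the median of each gene's probesets, 5 members in place of 3 were called between undifferentiated/spindle and mixed carcinomas. The unequal-variance test called 7 in place of 4 members for tumors against skin, 3 in place of 5 by grade, 2 in place of 4 for mixed against skin, 1 in place of 4 for mixed against poorly differentiated and 1 in place of 3 for undifferentiated/spindle against mixed. For undifferentiated/spindle against skin it called 5 in place of 7, without Plau and Timp3. Counting mixed with undifferentiated/spindle carcinomas left 2 of 5 calls by grade (Plat, Timp1 and Timp2 no longer passed). Leaving out 1 array gave 3 to 5 calls for undifferentiated/spindle against mixed (5 without Rb;Trp53 tumor 3 or 4) and 2 to 4 for mixed against poorly differentiated (2 without Rb;Trp53 tumor 6). The cause was not tested.

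Differences that were not called changed sign as follows. With the median of probesets, Plat was 0.057 and Serpinb5 -0.62 in poorly differentiated carcinomas against skin, and Timp2 was -0.076 in mixed against poorly differentiated ones. With mixed tumors added to the undifferentiated/spindle ones, Plaur was -0.29 by grade. Between genotypes, the class covariate gave -0.37 for Plaur, -0.027 for Serpinb2 and -0.062 for Timp1, and poorly differentiated tumors alone gave -0.80 for Plaur, 0.35 for Serpinb5, -0.35 for Timp1 and 0.11 for Timp3. Over the arrays left out, Plat ranged from -0.18 to 0.11 in poorly differentiated carcinomas against skin, from -0.11 to 0.75 in mixed against skin and from -0.11 to 0.75 in mixed against poorly differentiated ones, Timp2 from -0.20 to 0.32 in mixed against poorly differentiated ones, and between genotypes Timp2 from -0.53 to 0.017, Plaur from -0.25 to 0.25, Timp1 from -0.064 to 0.67 and Serpinb5 from -1.28 to 0.16.

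The replicate numbers in the titles do not pair the samples: same-numbered samples had correlations of deviations from -0.48 to 0.64, and 3 of 17 pairs were over 0.1. The pair of tumors numbered 1, both spindle cell carcinomas, had 0.63, and the pair numbered 6, both poorly differentiated, had 0.64. With the replicate number as a block, 6 members were called for tumors against skin in place of 4, adding Serpinb2 (-3.86, limma adjusted p = 0.0216) and Serpinb5 (-4.18, adjusted p = 0.0236), and 0 between genotypes. Skin samples were numbered 1 to 5 only, so tumors numbered 6 to 8 could not enter the blocked difference from skin. Those tumors were mixed Trp53 tumor 7 and the poorly differentiated Trp53 tumor 6 and Rb;Trp53 tumors 6, 7 and 8. The small groups and the absence of detection calls limit what can be said of dim probesets such as those of Plau.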
